A study of Mus musculus with 8 samples.

Results

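The 36 genes described here are markers of dividing cells, followed through mouse oral mucosa by site, replicate and section. They were taken by symbol from a list that was chosen with earlier results of these data known. All 36 were found once among the 33545 entries with a count, none was at 0 in any sample, and all 36 passed the filters on low counts in every comparison. For description they were sorted before the fits into an S-phase and a mitotic class. A class name does not mean that a product acts in that phase alone. The S-phase class has 12 members (Cdc45, Ccne2, Mcm2 to Mcm7, Pcna, Rrm1, Rrm2 and Tyms). The mitotic class has 22 (Mki67, Top2a, Birc5, Tpx2, Cdk1, Ccnb1, Ccnb2, Ccna2, Aurka, Aurkb, Bub1, Bub1b, Plk1, Cenpa, Cenpe, Cenpf, Kif11, Kif20a, Kif23, Nusap1, Ube2c and Cdc20). Foxm1 and Mybl2, transcription factors that switch on late cell cycle genes, were kept apart as 2 regulators.

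Hard palate, dorsal tongue, ventral tongue and buccal mucosa (the inner cheek) of wild-type C57BL/6J mice each gave 2 samples, 8 in all, with no treatment. Each sample was cut into 20 consecutive sections of 14 µm, 280 µm in all, and the RNA of every section was barcoded on its own (tomo-seq), so that a gene can be followed through the tissue. No label tells if the replicates of a site are different mice, and the p-values below therefore rest on a spread between samples that could be technical. The labels give no age and do not say which end of the block section 1 was.

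A dividing cell first copies its DNA in S phase and then, after a gap, separates the copies in mitosis. Genes for the replication machinery are switched on by E2F factors at the start of S phase, while genes for the mitotic machinery are held silent by the DREAM complex and switched on later by B-MYB (Mybl2) and FOXM1. In the stratified epithelium that lines the mouth, division takes place in the basal layer and its nearest neighbours, and cells that move up towards the surface leave the cycle and differentiate.

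Promoter sequences of the members were searched for the elements of these factors. RefSeq's promoter table of GRCm38.p6, which gives 250 bases before and 50 after a gene's start, held 29 members (18 mitotic, 10 S-phase and 1 regulator) of its 27025 genes. The cell cycle homology region (CHR), which DREAM and MuvB complexes bind, was searched as TTTGAA or TTCGAA on both strands. It was present in 14 of 18 mitotic promoters (77.8%) and 3 of 10 S-phase promoters (30%), beside 19.4% of all promoters. An E2F element was searched on both strands in any of 4 spellings, namely the spelling TTCCCGC, then the spelling TTGGCGC, then the spelling TTCGCGC and then the spelling TTGCCGC. It was present in 3 of 18 mitotic (16.7%) and 6 of 10 S-phase promoters (60%), beside 9.69% of all. CCAAT boxes were present in 16 of 18 (88.9%) and 9 of 10 (90%), beside 37.9% of all. The 180 bases before the start are shown for 4 mitotic and 3 S-phase members to let the elements be compared, 5′ to 3′ on the gene's strand. Capitals mark every CHR match and every E2F match on either strand, and E2F matches can overlap each other. Cdk1 holds 2 CHR and 2 E2F matches, Top2a 4 and 0, Mki67 2 and 1 and Ube2c 1 and 0, while Mcm5, Mcm6 and Rrm1 hold no CHR match and 3, 4 and 1 E2F matches. The windows are chr10:69352913-69353092 (minus strand) for Cdk1, chr11:99024190-99024369 (minus strand) for Top2a, chr7:135716380-135716559 (minus strand) for Mki67 and chr2:164769749-164769928 (plus strand) for Ube2c. They are chr8:75109329-75109508 (plus strand) for Mcm5, chr1:128359706-128359885 (minus strand) for Mcm6 and chr7:102441515-102441694 (plus strand) for Rrm1. A match describes these letters only and is not a measured binding site.
Cdk1: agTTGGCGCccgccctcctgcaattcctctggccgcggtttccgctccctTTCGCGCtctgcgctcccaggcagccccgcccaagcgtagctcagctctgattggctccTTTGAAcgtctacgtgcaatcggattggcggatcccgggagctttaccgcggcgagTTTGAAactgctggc
Top2a: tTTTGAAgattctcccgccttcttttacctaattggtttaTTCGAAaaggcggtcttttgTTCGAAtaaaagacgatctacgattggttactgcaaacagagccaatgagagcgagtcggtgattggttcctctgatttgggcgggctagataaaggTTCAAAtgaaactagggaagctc
Mki67: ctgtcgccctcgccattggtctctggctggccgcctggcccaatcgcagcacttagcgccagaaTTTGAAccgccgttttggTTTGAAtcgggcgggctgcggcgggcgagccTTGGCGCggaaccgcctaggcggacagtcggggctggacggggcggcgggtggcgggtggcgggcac
Ube2c: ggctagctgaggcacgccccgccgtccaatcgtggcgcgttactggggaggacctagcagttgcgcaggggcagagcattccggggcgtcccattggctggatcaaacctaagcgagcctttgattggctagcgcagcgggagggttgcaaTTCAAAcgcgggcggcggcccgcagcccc
Mcm5: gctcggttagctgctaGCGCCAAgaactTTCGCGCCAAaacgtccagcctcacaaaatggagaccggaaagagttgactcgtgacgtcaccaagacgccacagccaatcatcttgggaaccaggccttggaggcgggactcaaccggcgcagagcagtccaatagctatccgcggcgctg
Mcm6: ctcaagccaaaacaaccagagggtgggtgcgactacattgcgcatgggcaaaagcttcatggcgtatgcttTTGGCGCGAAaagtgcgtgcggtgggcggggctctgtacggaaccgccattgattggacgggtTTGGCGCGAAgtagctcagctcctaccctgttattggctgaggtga
Rrm1: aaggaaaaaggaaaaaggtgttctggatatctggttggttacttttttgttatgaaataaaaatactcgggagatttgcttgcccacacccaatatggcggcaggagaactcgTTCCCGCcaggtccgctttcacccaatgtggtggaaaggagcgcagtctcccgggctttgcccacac

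Sample totals ran from 7830471 to 26376536 UMIs (unique molecular identifiers, used to count captured transcript ends), and 6 of 160 sections had fewer than 100000. The highest count of a gene in a section was 4240, and among members 827, for Top2a. The suprabasal markers Krt13 and Krt4 came to 81774 and 81860 UMIs in ventral tongue replicate 1 and to 81895 and 81759 in replicate 2. A ceiling on the counts of such abundant genes, and its part in library totals and CPM, was not tested. The 36 genes together held 1743 UMIs in buccal mucosa replicate 2 and 11546 to 36173 in the other 7 samples. Values of samples, of sections 1 to 10 and 11 to 20, and of epithelium-rich and epithelium-poor sections are CPM, the UMI count relative to the library's total, divided by edgeR's TMM factor (scaled CPM), while values of single sections and of blocks of 5 are plain CPM. CEL-seq2 counts 3′ ends, so a value is not divided by gene length. Top2a (13901 UMIs over all samples), Cenpa (11219), Mki67 (9795) and Ube2c (9536) were counted most often, and Mybl2 (183), Ccne2 (262) and Bub1 (278) least often.

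Buccal mucosa replicate 2 stood apart before any comparison. All 22 mitotic members were lower in it than in each of the other 7 samples, at a median of 11.8% of the other samples' median, with Cenpf at 5.61% and Aurka at 60.7%. Of the 12 S-phase members, Cdc45, Mcm5, Mcm7, Rrm2 and Tyms were below all other samples, and the class median was 84.1%, with Rrm2 at 31.5% and Mcm2 at 130%. Foxm1 was at 19.9%. The sample also differed in the cell types its transcripts came from. Its 10 basal keratinocyte markers summed to 357 scaled CPM, against 1866 to 2766 in the other samples, and its 12 suprabasal markers to 378, against 12722 to 20243. Its 15 salivary gland markers summed to 4151, against 69.4 to 183, its 10 adipocyte markers to 2176, against 44.3 to 378, and its 9 skeletal muscle markers to 21217, against 148 to 13004. All 10 basal markers and 10 of the 12 suprabasal markers were still above 1 scaled CPM there. Relative to 1000 scaled CPM of basal markers, the mitotic sum was 264 in this sample and 236 to 551 in the others, while the S-phase sum was 348, against 57.5 to 98.9. In bulk sections fewer cells of a type and less RNA per cell cannot be told apart.

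Hard palate replicate 1 stood at the other end. It had the highest level of 21 of the 22 mitotic members, 9 of the 12 S-phase members and both regulators, and Mki67 was the mitotic exception. Its mitotic members were at a median of 2.61 times those of hard palate replicate 2, from 0.902 for Mki67 to 3.75 for Bub1b. S-phase members were at a median of 2.08 times, from 0.968 for Mcm6 to 3.84 for Mcm2. Dorsal and ventral tongue replicates were closer, with mitotic medians of 0.786 and 0.961 times for replicate 1 over replicate 2. Basal markers summed to 2677 scaled CPM in hard palate replicate 1 and to 2303 in replicate 2. The 8 fibroblast markers summed to 3137 in replicate 1, the lowest of the 8 samples, and to 6459 in replicate 2, the 9 endothelial markers to 129 and 197, and the 10 adipocyte markers to 44.3 and 96.0. The part of cell composition or of the library in either sample's levels was not tested.

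**Figure D1:**
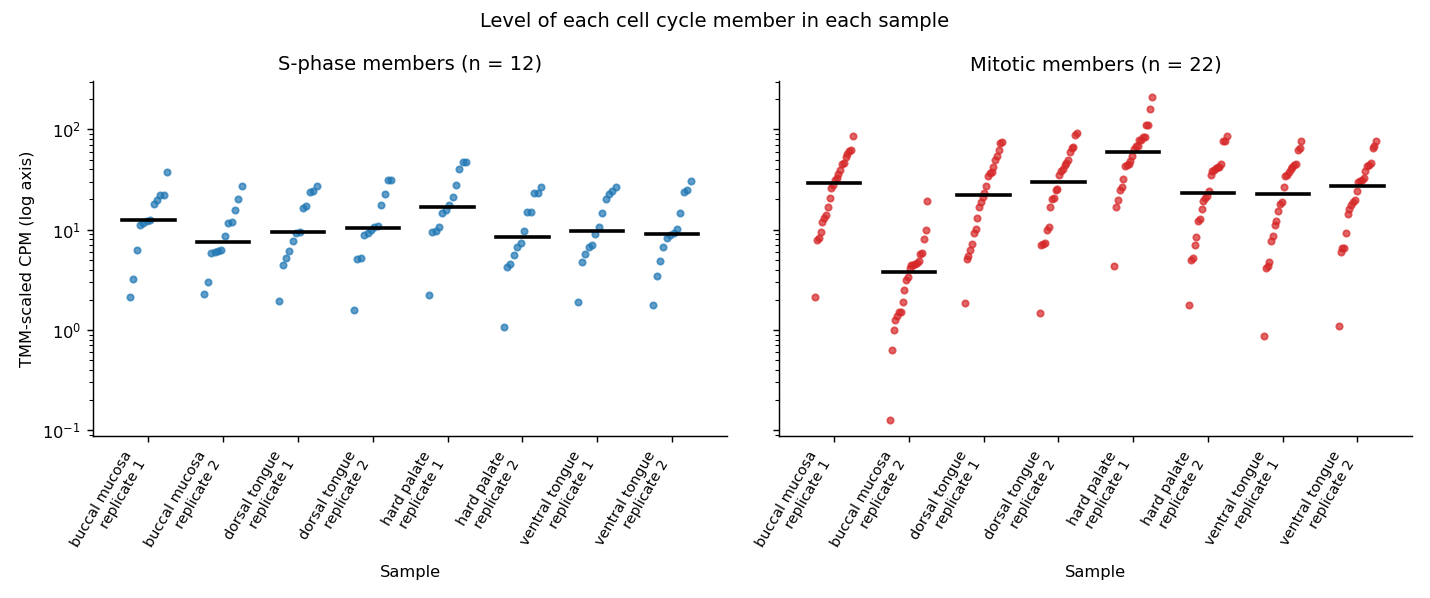
Level of every S-phase and mitotic member in each of the 8 samples, in TMM-scaled CPM on a log axis, with the classes in separate panels. Each point is 1 gene, sorted by level within the sample, and bars mark the median. Mitotic points are low in buccal mucosa replicate 2, where all 22 members are lowest. Of these 22, 21 are highest in hard palate replicate 1, while S-phase points move less.

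Levels of the 6 genes reported in full differed in how far they followed this pattern. Mki67, the gene of the Ki-67 protein that coats mitotic chromosomes, was at 77.7 and 86.2 scaled CPM in hard palate replicates 1 and 2 and at 62.4 and 65.8 in dorsal tongue. It was at 62.2 and 64.8 in ventral tongue and at 52.5 and 4.42 in buccal mucosa. Both hard palate samples were thus above the other 6 and both buccal samples below, with dorsal and ventral tongue overlapping in between. The site means were 82.0 ± 6.00 in hard palate, 64.1 ± 2.36 in dorsal tongue, 63.5 ± 1.83 in ventral tongue and 28.5 ± 34.0 in buccal mucosa (SD, n = 2 each). Top2a, the topoisomerase that untangles sister chromatids, was at 209.5 and 77.1 scaled CPM in hard palate, 73.2 and 88.3 in dorsal tongue, 77.1 and 76.4 in ventral tongue and 85.6 and 8.08 in buccal mucosa. Without the high value of hard palate replicate 1 and the low value of buccal mucosa replicate 2 its range was 73.2 to 88.3, and no order of the sites could be read from it. Ccnb1, the cyclin that drives entry into mitosis, had the same shape, with 111.6 and 42.2 in hard palate, 37.5 and 49.5 in dorsal tongue, 42.3 and 38.6 in ventral tongue and 60.6 and 4.55 in buccal mucosa.

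Of the S-phase genes, Pcna, the sliding clamp of DNA polymerases, was at 28.1 and 23.1 scaled CPM in hard palate, 24.4 and 17.8 in dorsal tongue, 24.2 and 14.6 in ventral tongue and 21.98 and 20.2 in buccal mucosa. All 4 sites overlapped, and buccal mucosa replicate 2 lay within the range of the other samples. Mcm5, a subunit of the replicative helicase, was at 15.6 and 9.71 in hard palate, 9.25 and 10.7 in dorsal tongue, 10.6 and 6.69 in ventral tongue and 11.1 and 5.81 in buccal mucosa, again with every site overlapping another. The regulator Foxm1 followed the mitotic genes, with 11.4 and 5.79 in hard palate, 3.84 and 4.11 in dorsal tongue, 4.43 and 3.57 in ventral tongue and 6.55 and 0.884 in buccal mucosa.

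None of the 36 genes differed between the 4 sites by edgeR's quasi-likelihood test with Benjamini-Hochberg adjustment, where 4.77% of the 18609 genes tested did. The smallest adjusted p was 0.217 for Mybl2, the only member with an unadjusted p under 0.05 (22.8% of all genes), and DESeq2 called 0 members too. Each site against the mean of the other 3 on the log scale gave 0 members as well, beside 9.76% of all genes in hard palate, 0.838% in dorsal tongue, 1.29% in ventral tongue and 0.72% in buccal mucosa. In hard palate Mybl2 and Kif23 had an unadjusted p under 0.05, where 26.2% of all genes did. In dorsal tongue, ventral tongue and buccal mucosa no member did, beside 9.09%, 11.8% and 19.4% of all genes. DESeq2 called 0 members in each of these 4 comparisons. In hard palate all 22 mitotic members were positive, with a median log2 fold change of 1.00, and 10 of 12 S-phase members, with a median of 0.48, beside -0.01 over all genes. Markers of other cells moved in the same comparison: basal keratinocyte markers had a median of 1.03 (9 of 10 positive, 1 called), endothelial markers of -1.02 (0 of 8 positive, 1 called) and skeletal muscle markers of -6.62 (7 of 9 called lower), and their part in the members' values was not tested. Kif23, a kinesin of the central spindle, had the largest at 1.80 ± 0.73 (SE, adjusted p = 0.177), Mybl2 was at 1.10 ± 0.35 (adjusted p = 0.0991) and Mki67 at 0.75 ± 0.69 (adjusted p = 0.543). These values moved with single samples. Without hard palate replicate 1 the mitotic median was 0.25, and without hard palate replicate 2 it was 1.61. Leaving out buccal mucosa replicate 2 gave a mitotic median of 0.72 and 0 members called. Leaving out buccal mucosa replicate 1, so that only the low sample stood for its site, gave 1.78 and 21 members called in hard palate, where 27.3% of all genes were then called. In buccal mucosa no mitotic member was positive (median -0.93), whereas the S-phase median was 0.06 beside 0.03 over all genes. There the mitotic median was -3.41 with replicate 2 alone, where 18 members and 25.2% of all genes were called, and -0.17 with replicate 1 alone, where 0 were. Dorsal tongue had mitotic and S-phase medians of 0.02 and -0.02 and ventral tongue of -0.17 and -0.22. With library size only and no TMM factor the mitotic median of dorsal tongue turned to -0.22, as did the median of all genes, at -0.22, and that of all genes moved to 0.29 in hard palate.

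Both hard palate samples lay above the other 6 for Cenpf, Kif23, Mki67 and Mybl2, 4 of 36 members where 12.3% of all genes did; with library size only it was 10 members and 22.6% of all genes. Both buccal mucosa samples lay below the other 6 for Cdc45, Cenpa, Mcm7 and Mki67, 4 members where 5.78% of all genes did. Mki67 thus stood in both lists. No member separated dorsal or ventral tongue from the other samples in either direction, beside 6.12% of all genes above and 4.09% below in dorsal tongue and 5.26% and 3.48% in ventral tongue.

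The balance of the classes lay in a narrow range in 7 samples. S-phase UMIs per mitotic UMI came to 0.179 and 0.210 in hard palate, 0.244 and 0.211 in dorsal tongue, 0.251 and 0.228 in ventral tongue and 0.253 in buccal mucosa replicate 1, against 1.32 in buccal mucosa replicate 2. As a share of the UMIs of both classes, S-phase transcripts made up 56.8% in buccal mucosa replicate 2 (95% exact binomial interval 54.5% to 59.2%, counting error only) and 15.2% to 20.2% in the other 7. Summed over its class, the S-phase level was 265 and 142 scaled CPM in hard palate, 153 and 164 in dorsal tongue, 154 and 147 in ventral tongue and 179 and 124 in buccal mucosa. The mitotic sum was 1475 and 678 in hard palate, 629 and 778 in dorsal tongue, 616 and 646 in ventral tongue and 705 and 94.3 in buccal mucosa. Outside hard palate replicate 1 and buccal mucosa replicate 2 the mitotic sums spanned 616 to 778, and the sites overlapped. The site means of the ratio were 0.195 ± 0.021 in hard palate, 0.227 ± 0.023 in dorsal tongue, 0.239 ± 0.016 in ventral tongue and 0.785 ± 0.752 in buccal mucosa (SD, n = 2 each). Being a score over chosen genes, the ratio was not tested.

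All 22 mitotic members had a positive fold change in sections 1 to 10 over sections 11 to 20 of the same sample and 7 of them passed, while S-phase members went both ways and 0 passed; the difference between the classes was not tested. The sample was a block in this fit. Of the 22 mitotic members 7 rose in sections 1 to 10, 0 fell, and 0 of the 12 S-phase members and 0 of the 2 regulators passed, while 27.6% of the 17905 genes tested passed (11.9% higher). All 22 mitotic members were positive, with a median log2 fold change of 0.30, and 7 of 12 S-phase members, with a median of 0.01, beside -0.03 over all genes. The spindle assembly factor Tpx2 rose by 0.39 ± 0.10 (SE, adjusted p = 0.0125) and Ube2c, a ubiquitin-conjugating enzyme that works with the anaphase-promoting complex, by 0.39 ± 0.10 (adjusted p = 0.0146). Birc5, the survivin subunit of the chromosomal passenger complex, rose by 0.43 ± 0.13 (adjusted p = 0.0223) and Ccnb1 by 0.34 ± 0.10 (adjusted p = 0.0257). The centromeric histone Cenpa rose by 0.30, the mitotic kinase Cdk1 by 0.35 and the kinetochore motor Cenpe by 0.44. Mki67 was at 0.36 ± 0.13 (adjusted p = 0.0549) and Top2a at 0.40 ± 0.14 (adjusted p = 0.0595). Among the S-phase genes Mcm2 was at -0.34 ± 0.12 (adjusted p = 0.0624), Rrm2, the cell cycle regulated subunit of ribonucleotide reductase, at 0.25 ± 0.11 (adjusted p = 0.119), and Pcna at 0.01 ± 0.07 (adjusted p = 0.942).

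Ccnb1 shows the size of this difference. In ventral tongue it was at 59.5 and 42.2 scaled CPM in sections 1 to 10, against 32.9 and 35.8 in sections 11 to 20, and in buccal mucosa at 63.3 and 6.40, against 51.4 and 2.62. Dorsal tongue had 40.7 and 51.6, against 34.2 and 45.7, and hard palate 112.7 and 50.5, against 111.2 and 40.4. All 8 samples were higher in sections 1 to 10 with TMM factors, least so in hard palate replicate 1, where Ccnb1 turned with RLE scaling to 112.8 in sections 1 to 10 against 114.3 in sections 11 to 20. The same held with TMM factors for Ccnb2, Cdk1, Cenpa, Tpx2 and Ube2c, 6 of 22 mitotic and 0 of 12 S-phase members, where 7.6% of all genes were higher in 8 of 8 samples. With RLE scaling 3 mitotic members were (Aurkb, Cenpa and Ube2c; 9.05% of all genes), and with library size only 0 (4.52%). Mki67 was higher in 7 of 8 (6 with library size only), the exception being hard palate replicate 1, with 70.5 in sections 1 to 10 against 86.0 in sections 11 to 20. Its other values were 105.6 against 81.1 in hard palate replicate 2, 62.8 and 68.2 against 60.4 and 61.1 in dorsal tongue, 88.4 and 74.0 against 47.8 and 56.6 in ventral tongue, and 59.5 and 6.40 against 35.8 and 2.41 in buccal mucosa. Pcna was higher in sections 1 to 10 in 4 of 8 samples (5 with RLE scaling, 3 with library size only), with 21.9 ± 4.57 against 21.8 ± 4.58 scaled CPM (SD, n = 8 each).

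**Figure D2:**
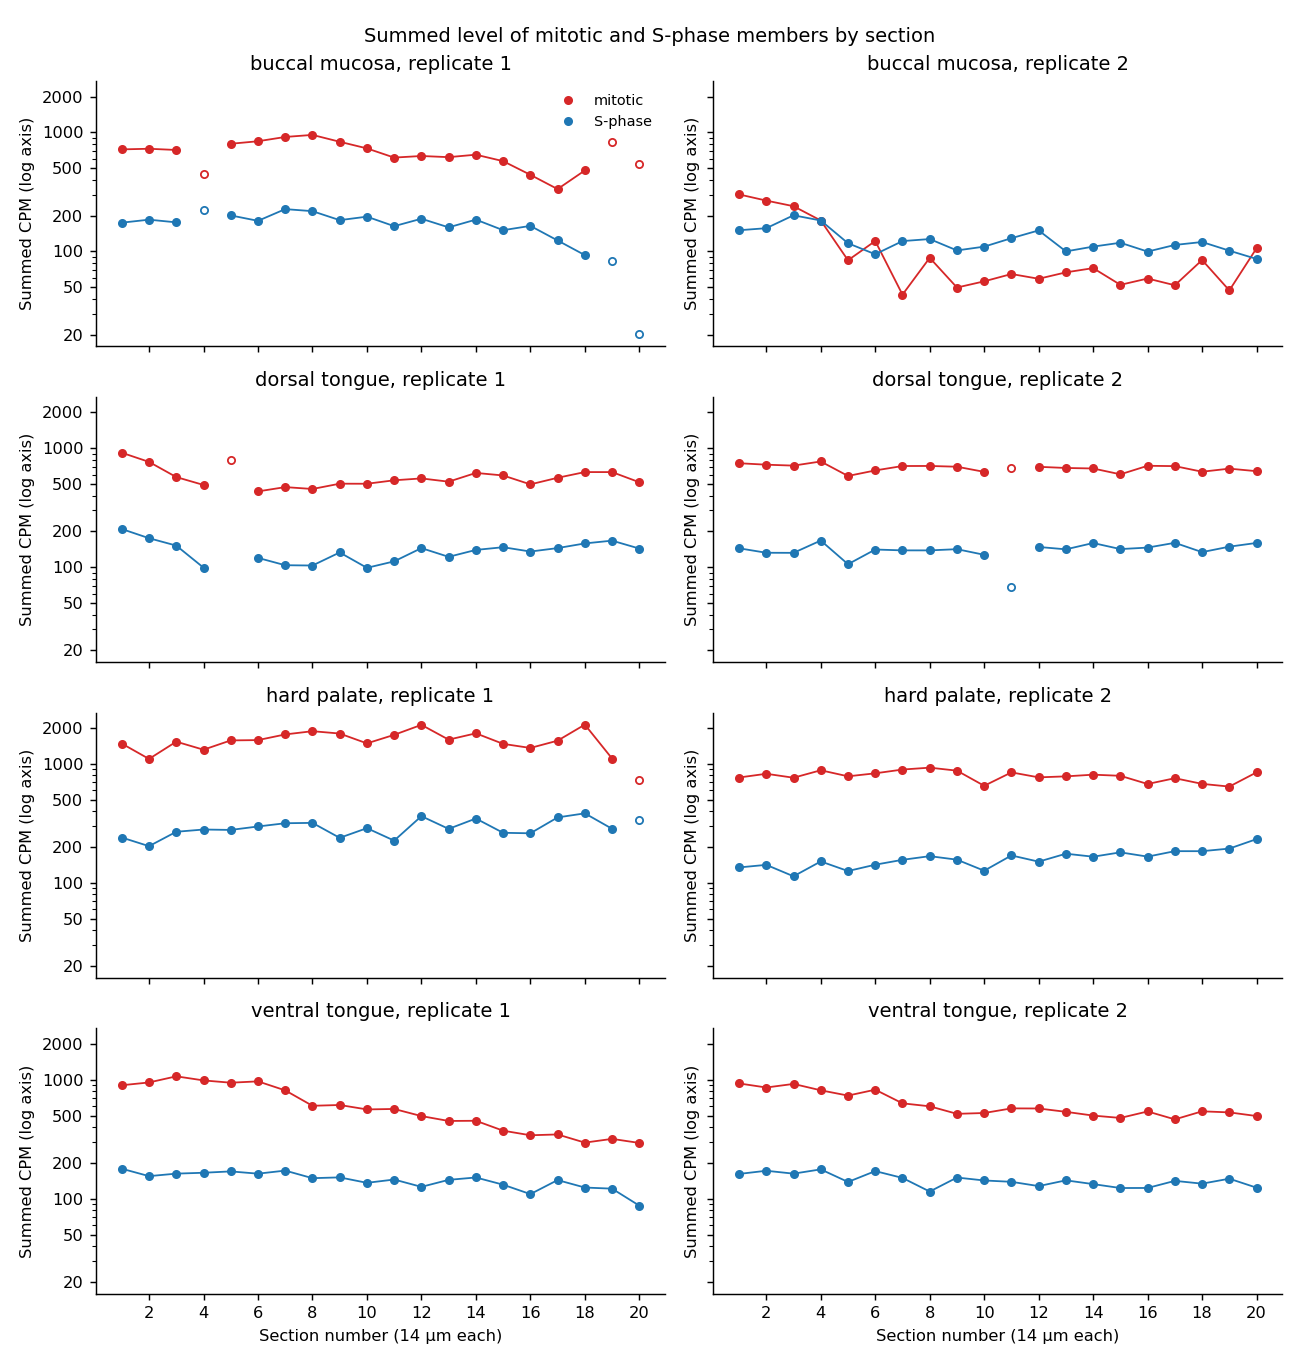
Summed plain CPM of the 22 mitotic and 12 S-phase members in each section of the 8 samples, on a log axis, against section number. Mitotic levels fall with section number in both ventral tongue samples, while the S-phase line stays flatter.

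This count of calls depended on the scaling and on which samples entered. With library size only, 0 members passed, although 21 of 22 mitotic members stayed positive (median 0.26, all genes -0.07). Of the genes called, 43.0% were higher in sections 1 to 10 with TMM, 52.8% with RLE scaling and 29.5% with library size only. Leaving out 1 sample gave 2 members without ventral tongue replicate 1, 4 without ventral tongue replicate 2 and 4 without dorsal tongue replicate 2. It gave 16 without hard palate replicate 1 and 14 without hard palate replicate 2. Other gene groups moved with the same split: 4 of 10 basal and 9 of 12 suprabasal keratinocyte markers rose in sections 1 to 10 with 0 falling, while 8 of 8 endothelial and 6 of 9 skeletal muscle markers fell. Their part in the members' difference was not tested.

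The ratio of S-phase to mitotic UMIs, which needs no scaling, was lower in sections 1 to 10 in all 8 samples. It was 0.194 and 0.210 in sections 1 to 10 of ventral tongue, against 0.325 and 0.253 in sections 11 to 20, and 0.242 and 0.989 in buccal mucosa, against 0.282 and 1.88. Hard palate had 0.176 and 0.172, against 0.183 and 0.241, and dorsal tongue 0.235 and 0.197, against 0.250 and 0.224. As a share, S-phase transcripts were 16.2% (95% exact binomial interval 15.3% to 17.2%) in sections 1 to 10 of ventral tongue replicate 1 and 24.5% (23.4% to 25.7%) in sections 11 to 20. The intervals of the shares overlapped in hard palate replicate 1 and in dorsal tongue replicate 1 and did not in the other 6 samples. In blocks of 5 sections, ventral tongue replicate 1 went through ratios of 0.170, 0.212, 0.302 and 0.371 from sections 1 to 5 to sections 16 to 20. Its mitotic sum was 971, 732, 466 and 320 CPM in these blocks and its S-phase sum 165, 156, 141 and 119, so the mitotic sum had the larger relative drop. Ventral tongue replicate 2 ran from 0.190 in the first block to 0.257 in the last, and hard palate replicate 2 from 0.166 to 0.265. In hard palate replicate 2 the S-phase sum was 134 CPM in the first block and 196 in the last, while the mitotic sum was highest in sections 6 to 10, at 853. Hard palate replicate 1 stayed between 0.175 and 0.190, and its mitotic sum was 1476, 1753, 1845 and 1925 CPM from the first block to the last. These sums are plain CPM; with TMM factors the mitotic sum of replicate 1 was 1463 in sections 1 to 10 and 1498 in sections 11 to 20, and the S-phase sum of replicate 2 was 138 and 157.

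**Figure D3:**
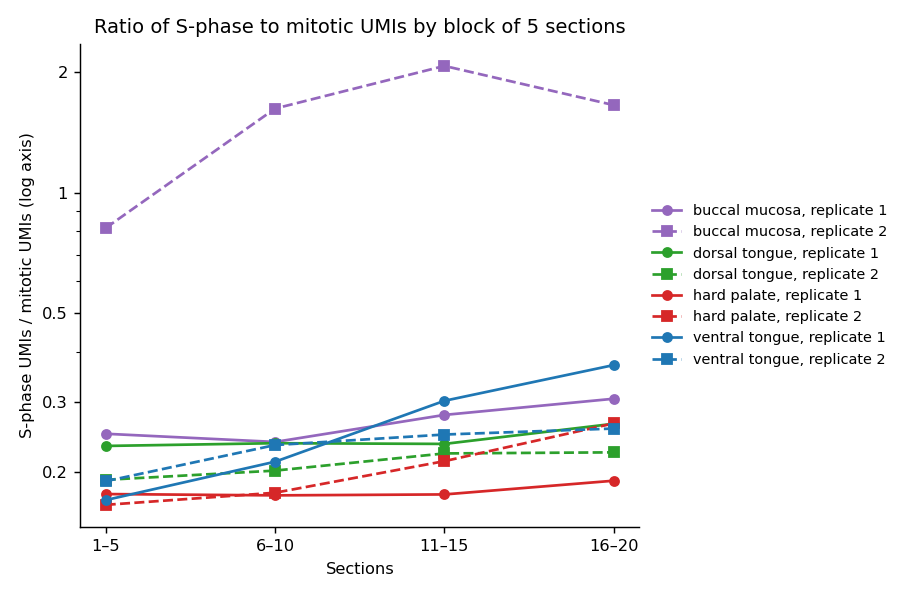
Ratio of S-phase to mitotic UMIs in blocks of 5 sections, on a log axis, 1 line per sample. Buccal mucosa replicate 2 lies between 0.816 and 2.08 and the other 7 samples between 0.166 and 0.371, where the largest rise between the first and the last block is that of ventral tongue replicate 1.

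Single members peaked at different depths in different samples. The first block held the highest plain CPM of 21 and 20 of the 22 mitotic members in ventral tongue replicates 2 and 1, of 20 in buccal mucosa replicate 2 and of 14 in dorsal tongue replicate 1. Sections 6 to 10 held the peak of 17 in buccal mucosa replicate 1 and of 15 in hard palate replicate 2, and the last block that of 15 in hard palate replicate 1. In dorsal tongue replicate 2 the peaks were spread over the 4 blocks, with 4, 5, 6 and 7 members. S-phase peaks fell in the last block for 9 of 12 members in hard palate replicate 1 and for 10 of 12 in hard palate replicate 2, so that in replicate 2 the classes peaked in different blocks.

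Sections were also split by an epithelial score. Within each sample a score of 20 genes of stratified epithelia, none of them a member, divided them. This gave 7 to 17 epithelium-rich sections per sample. The names are relative to the sample. Epithelium-rich section 1 of buccal mucosa replicate 2 scored 5.64, while epithelium-poor section 20 of ventral tongue replicate 1 scored 7.24. In hard palate replicate 1 a split by Krt5 and Krt14 made section 1 epithelium-poor and section 20 epithelium-rich, the reverse of the main split. In dorsal tongue replicate 2 the epithelium-rich sections were sections 1 to 10 exactly. In every sample but dorsal tongue replicate 1 they ran unbroken from section 1. This split therefore largely overlaps that of sections 1 to 10 against 11 to 20 and is no separate evidence. Because this contrast was drawn from the same sections, its p-values are no independent test of depth. Of the 36 members 21 rose in epithelium-rich sections and 0 fell, where 36.1% of the 17807 genes tested passed (23.3% higher). They were 19 of 22 mitotic members, Rrm2 and Foxm1. The mitotic median was a log2 fold change of 0.46 and the S-phase median 0.09, beside 0.09 over all genes. Aurkb, Bub1 and Kif11 were the mitotic members that did not pass, at 0.38, 0.29 and 0.36. Tpx2 rose by 0.57 ± 0.10 (SE, adjusted p = 0.00116), Birc5 by 0.64 ± 0.14 (adjusted p = 0.00294), Top2a by 0.58 ± 0.13 (adjusted p = 0.00438) and Mki67 by 0.55 ± 0.14 (adjusted p = 0.00766). Foxm1 rose by 0.53 ± 0.14 (adjusted p = 0.0115) and Rrm2 by 0.37 ± 0.11 (adjusted p = 0.0196), while Pcna was at 0.09 ± 0.07 (adjusted p = 0.376) and Mcm4 at -0.02 ± 0.10 (adjusted p = 0.966).

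Top2a was at 121 and 105.8 scaled CPM in epithelium-rich sections of ventral tongue, against 51.2 and 58.8 in epithelium-poor ones, and at 108.3 and 13.8 in buccal mucosa, against 64.5 and 5.25. It was at 77.3 and 95.5 in dorsal tongue, against 61.3 and 86.4, and at 226 and 90.5 in hard palate, against 201 and 75.5. All 8 samples were higher in the epithelium-rich sections with TMM and with RLE scaling. With TMM the same was true of Birc5, Ccnb1, Cenpa, Cenpf, Kif23, Nusap1, Tpx2, Ube2c and Foxm1, beside 13.3% of all genes. With RLE it was true of 4 members, Top2a, Ccnb1, Tpx2 and Ube2c (9.48% of all genes), and with library size only of 0 (3.94%). Mki67 failed in hard palate replicate 1, with 80.6 in epithelium-rich against 86.7 in epithelium-poor sections. The S-phase to mitotic ratio was lower in the epithelium-rich sections in 8 of 8 samples, at 0.190 and 0.198 against 0.318 and 0.251 in ventral tongue and at 0.178 and 0.175 against 0.185 and 0.247 in hard palate. It was 0.237 and 0.197 against 0.266 and 0.224 in dorsal tongue and 0.237 and 0.867 against 0.278 and 1.87 in buccal mucosa. Again the scaling set the count: with library size only 2 members passed, all 22 mitotic members stayed positive (median 0.31), and the S-phase median turned to -0.06, as the all-gene median shifted by 0.146 log2 units to -0.06. Of the genes called, 64.6% were higher in epithelium-rich sections with TMM, 51.3% with RLE and 29.8% with library size only. Leaving out 1 sample gave 3 members without ventral tongue replicate 2 and 4 without replicate 1. It gave 10 without buccal mucosa replicate 2, 10 without dorsal tongue replicate 2 and 12 without dorsal tongue replicate 1. Of the epithelial markers, 9 of 10 basal and 12 of 12 suprabasal genes rose in the same sections. The score that set the split held epithelial genes, among them Trp63 and Krt15 of the basal and Grhl3 of the suprabasal list. The rise of these markers therefore follows from the split, and their part in the members' rise was not tested.

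**Figure D4:**
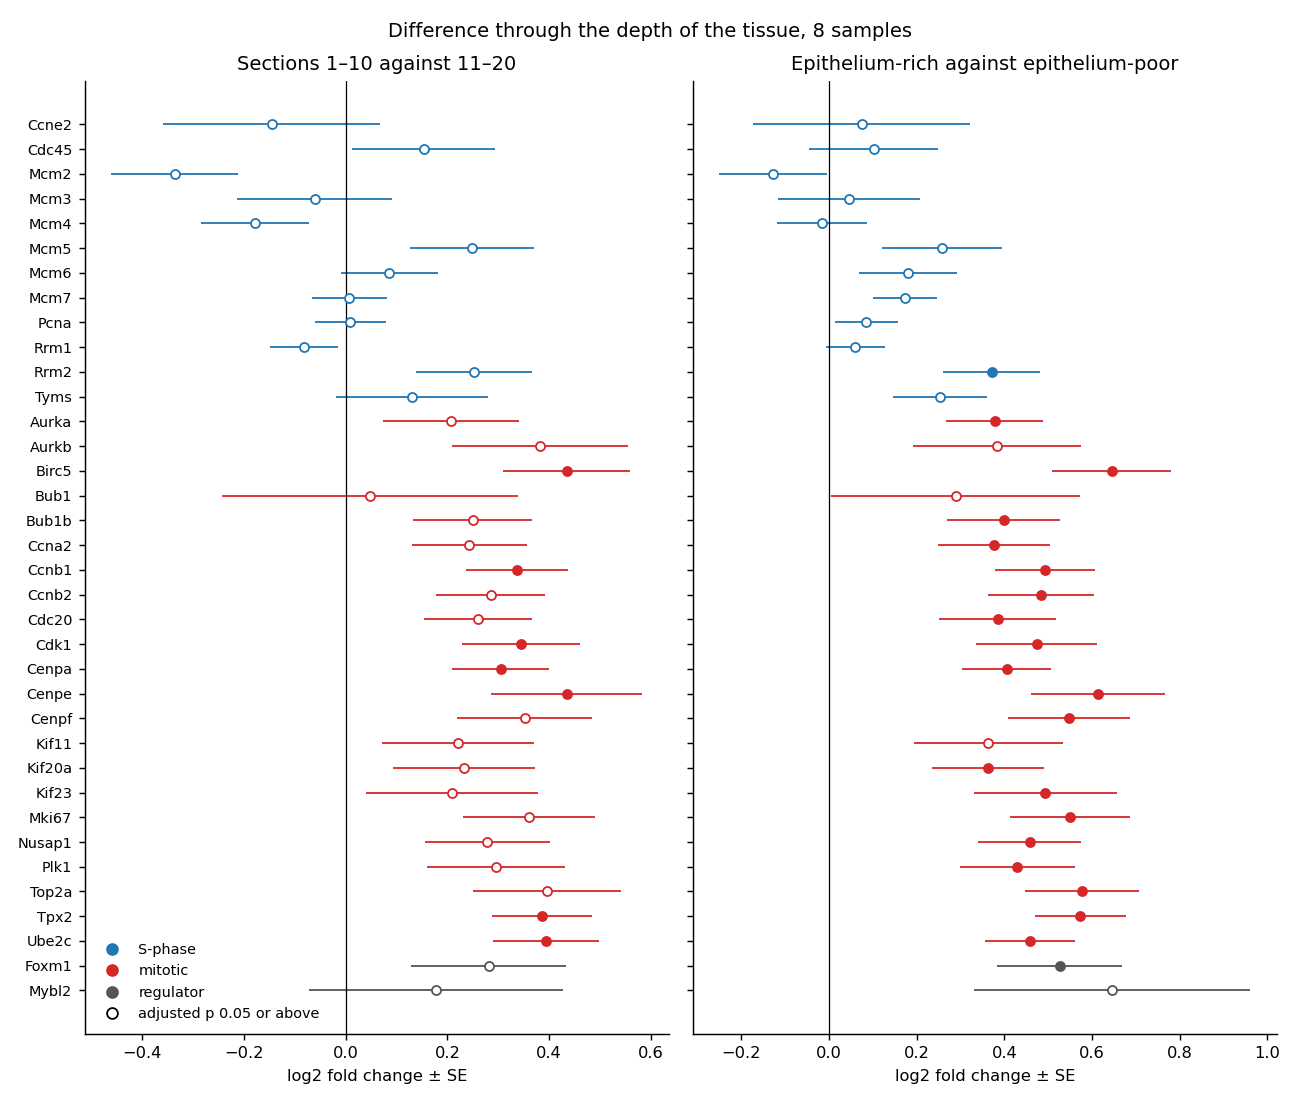
Log2 fold change ± SE of each member in sections 1 to 10 over 11 to 20 and in epithelium-rich over epithelium-poor sections, 8 samples, positive when higher in sections 1 to 10 or in epithelium-rich sections. All 22 mitotic members lie right of 0 in both panels and S-phase members lie around 0; with library size only, 21 and 22 mitotic members stay positive.

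Within single sites, members passed for sections 1 to 10 in ventral tongue and in no other site, but the dependence of the depth difference on the site was not called. In ventral tongue 11 of 22 mitotic members and Rrm2 rose in sections 1 to 10, where 18.1% of all genes passed (7.58% higher). Cenpe rose by 1.02 ± 0.17 (SE, adjusted p = 0.00680), the central spindle kinesin Kif23 by 1.00 ± 0.22 (adjusted p = 0.0125), and Cenpf, Birc5, Ube2c, Top2a and Plk1 by 0.78 to 0.85. Cdk1 rose by 0.66, Mki67 by 0.63, Ccna2 and Ccnb2 by 0.56 and Rrm2 by 0.48. No member passed in buccal mucosa, dorsal tongue or hard palate, where 6.34%, 6.61% and 5.73% of all genes did. At an unadjusted p under 0.05 there were 7 of 22 mitotic members and Rrm2 in buccal mucosa, beside 22.7% of all genes. There were 0 members in dorsal tongue (21.9%) and Mcm3 in hard palate (22.2%). With the classes pooled, none of these sites had a larger share of members than of all genes. In ventral tongue 18 mitotic members, Rrm2 and Tyms were under 0.05, beside 32.8% of all genes. The mitotic median was 0.63 in ventral tongue, 0.47 in buccal mucosa, 0.12 in hard palate and 0.06 in dorsal tongue; with library size only it turned to -0.09 in hard palate and -0.03 in dorsal tongue. The S-phase median was 0.13 in ventral tongue, 0.29 in buccal mucosa, -0.16 in hard palate and -0.04 in dorsal tongue. Keratinocyte and other markers moved with the split within ventral tongue: 6 of 10 basal markers (median 0.63) and 7 of 12 suprabasal markers rose in sections 1 to 10, and 4 of 8 endothelial and 4 of 9 skeletal muscle markers fell. Their part in the members' rise there was not tested. The interaction test of depth and site called 0 members, where 0.408% of all genes passed. The smallest adjusted p was 0.126 for Cenpe, and 6 mitotic members, Rrm2 and Tyms had an unadjusted p under 0.05, beside 15.1% of all genes.

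Between epithelium-rich and epithelium-poor sections 19 mitotic members and Rrm2 rose in ventral tongue (23.6% of all genes, 13.9% higher), led by Kif23 at 1.26, Cenpe at 1.20 and Cenpf at 1.11. In buccal mucosa Top2a, Tpx2, Mki67, Cenpe and Rrm2 rose (11.7% of all genes, 6.04% higher), by 0.90, 0.88, 0.97, 1.00 and 0.74. No member passed in dorsal tongue (5.48%) or hard palate (4.04%), where Birc5 and Tpx2 and, in hard palate, Cenpe had an unadjusted p under 0.05, beside 24.2% and 20.6% of all genes. The interaction with the site called 0 members here as well (0.387% of all genes; smallest adjusted p 0.128).

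**Figure D5:**
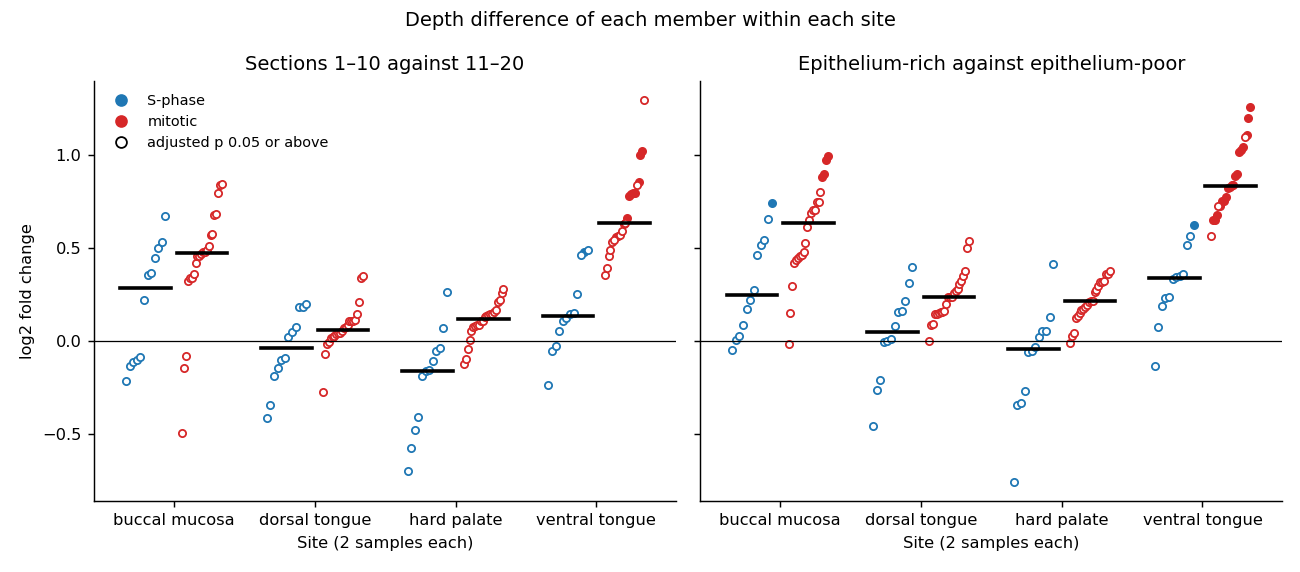
Log2 fold change of each member within each site, for sections 1 to 10 over 11 to 20 and for epithelium-rich over epithelium-poor sections, with filled points at an adjusted p under 0.05. Filled points are found in ventral tongue in both panels and in buccal mucosa for the epithelium split, and in none of the other cases. The mitotic medians of dorsal tongue and hard palate in sections 1 to 10 turn negative with library size only.

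Other cell cycle genes were read from the same fits. Of 50 further genes of the spindle, kinetochore and cytokinesis 11 rose and 1 fell in sections 1 to 10, and 35 rose and 1 fell in epithelium-rich sections, with medians of 0.29 and 0.46. Of all genes 27.6% and 36.1% passed in these contrasts, 11.9% and 23.3% upwards, and the counts of every list here are to be read against these shares. Melk, a kinase of dividing cells, was at 0.50 and 0.66 in the 2 contrasts and the phosphatase Cdc25b at 0.32 and 0.48. Pttg1 (securin) went the other way, at -0.57 in sections 1 to 10, and it was also lower in hard palate than in the other sites (-1.65 ± 0.32 SE, adjusted p = 0.0231). Of 30 origin and replication fork genes tested 1 rose and 2 fell in sections 1 to 10, with Rpa2 at -0.54, Pola2 at -0.60 and Prim1 at 0.30. In epithelium-rich sections 5 rose and 2 fell, with the chromatin assembly factor subunit Chaf1a at 0.58, the ligase Lig1 at 0.46 and Clspn at 0.72. Of 19 G1 cyclin, E2F and RB family genes 1 rose and 2 fell in sections 1 to 10 (Lin54 at 0.27, E2f8 at -0.45, Rbl2 at -0.36), and 8 rose and 1 fell in epithelium-rich sections. Of 14 inhibitors and arrest genes 4 rose and 2 fell in sections 1 to 10. Cdkn1c (p57) was at -0.78 there and Ccng1 at -0.91, and Btg1 was at 0.39. In hard palate against the other sites, where 9.76% of all genes passed, Cdkn2b (p15) rose by 1.78 ± 0.26 (adjusted p = 0.0105), Cdkn1c fell by 2.65 on the log2 scale (adjusted p = 0.0196) and Ccng1 fell by 2.82 (adjusted p = 0.0228). Skeletal muscle markers summed to 242 and 148 scaled CPM in hard palate replicates 1 and 2 and to 7751 to 21217 in the other samples. Most of these markers also fell in sections 1 to 10. The part of cell composition in the values of these lists was not tested.

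Across the sections of a sample with at least 100000 UMIs (17 to 20 sections), the mean log2 level of the mitotic members followed that of the basal keratinocyte markers, with a Pearson correlation of 0.96 and 0.93 in ventral tongue replicates 1 and 2 and 0.92 in buccal mucosa replicate 1. It was 0.79 in buccal mucosa replicate 2, 0.82 and 0.54 in hard palate and 0.78 and 0.47 in dorsal tongue. The S-phase members correlated with the basal markers at 0.00 (dorsal tongue replicate 2) to 0.80 (buccal mucosa replicate 1). Suprabasal markers correlated with the mitotic members at 0.95 and 0.84 in ventral tongue and at -0.46 and 0.12 in hard palate. In hard palate replicate 2 the S-phase members correlated at -0.93 with suprabasal and at 0.92 with immune markers, and the mitotic members at 0.12 and -0.20. Of the 12 immune markers 8 were above 1 scaled CPM in that sample, and the immune correlations of the other samples are not given here. Sections of a sample share its library and the 2 sides of each correlation share a section's depth, so these values describe the profiles and were not tested.

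The genes most like the mitotic class in section profile, among 9956 genes with a mean of at least 10 CPM, held none of the other cell cycle genes listed here. Over all 160 sections, centred within each sample, the nearest included the desmosomal cadherin Dsg3 (r = 0.814), Ggt6, Slc26a2, Ap1m2, Dock8, Arhgef4, Muc15, Anp32b and Prkcd (0.784), beside a median of 0.478 over all genes. Without the 6 shallow sections that median dropped to 0.151, and the nearest were the connexin Gja1 (0.833), Ptprf (0.797) and Dsg3 (0.779), then Mt2, Emp2, Arl6ip1, Sdc1, Hmgcs1, Vdr and Acsl5 (0.743). For the S-phase class the nearest without shallow sections were Ephx1 (0.690), Septin2 (0.686, under 2 gene identifiers), Anxa5, Ctnna1, Cd2ap, Snx5, Chtf8, Gtf2ird1 and Tuba1b (0.626), beside a median of 0.227. Over all sections they were Bclaf1 (0.861), Agrn, Coasy, Septin2, the replication gene Gins4, Pgrmc1, Dnajb14, Pitpnb and Cbll1 (0.841), beside a median of 0.536. Only Dsg3 in the mitotic lists and Septin2 in the S-phase lists were shared between the 2 sets of sections.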

How the data were processed

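Tomo-seq libraries of 8 oral mucosa samples, 2 per site, were analysed from the files as deposited. Sections were turned into CEL-seq2 libraries, per the labels' protocols. The submitters' processing notes list Trim Galore 0.6.10, STAR 2.7.9a and the genome build GRCm38. The counting program and strand setting were not given in the sources used here; hence overlapping and antisense genes cannot be told apart. The authors deposited per gene and section a count of distinct UMIs, a count of reads, and an estimated count of transcripts, which was rounded to whole numbers here. UMI counts were the main measure. Of 33545 entries 413 named several genes; they stayed in library sizes and tests and were not named.

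Counts were summed per sample or per part of a sample, filtered by filterByExpr and given TMM factors. The quasi-likelihood test of edgeR 4.0.16 was run in R 4.3.3, with Benjamini-Hochberg adjustment over all genes and a threshold of 0.05. Site fits used 8 sums; depth fits used 2 sums per sample with the sample as a block. SE is the fold change divided by the square root of F. Epithelium-rich sections lay above Otsu's threshold of a 20-gene score (mean log2(CPM + 1), running median over 3 sections). The scripts were tested on simulated data. There the hard palate comparison called 59 of 100 genes changed by 1 log2 unit and 99 of 100 changed by 2 log2 units. The simulated spread between samples was set in advance and not taken from these samples, whose replicates can differ more. Alternatives were RLE scaling, library size only, no filter, DESeq2 1.42.0, reads, estimated transcripts, other section splits, a replicate block and leaving out each sample. The replicate number was no block in the main fits, since the labels do not say if same-numbered samples share a mouse.

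The members, classes and gene lists were chosen with earlier results of these data known. Full values were set to be given for members that passed in a site comparison, which none did, and in any case for Mki67, Top2a, Pcna, Mcm5, Ccnb1 and Foxm1; of other cell cycle lists up to 3 genes per list and comparison were named, those with the smallest adjusted p. Depth was 7830471 to 26376536 UMIs per sample, with 1.91 to 2.74 reads per UMI. Intervals cover counting error only. Sequences are from RefSeq's tables.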

Additional observations from a re-analysis of the deposited data

Results flagged for a closer look

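In summed S-phase transcripts the direction of the depth difference was not the same in every site. Sections 1 to 10 were higher than sections 11 to 20 in both ventral tongue samples (log2 ratios of scaled CPM 0.20 and 0.13) and both buccal mucosa samples (0.15 and 0.13), and lower in both hard palate samples (-0.10 and -0.18) and both dorsal tongue samples (-0.02 and -0.04). With RLE scaling both dorsal tongue samples turned to 0.07 while the other 3 sites kept their signs, and with library size only all 4 sites kept theirs (alternatives added after the data were seen, as for all counts of samples by scaling). The means of the 2 sets of sites differed by 0.237 log2 units with TMM, a description only, since the sets were formed by the sign of the same ratio. This difference between sites was not tested for the sum, and by gene the interaction test called 0 of 12 S-phase members.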

How the results depend on the processing

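No called value changed sign under the alternatives. With RLE scaling 12 members were called in sections 1 to 10 (main count 7) and 13 in epithelium-rich sections (main count 21). With library size only, an alternative added after the data were seen, the counts were 0 and 2, and 1 in hard palate. Without a filter 8 members were called for any difference between sites, 5 in buccal mucosa, 13 in hard palate, 15 in sections 1 to 10 and 9 in the interaction of depth and site. DESeq2 called 14 in sections 1 to 10. In epithelium-rich sections read counts gave 9 and regions drawn by Krt5 and Krt14 gave 11. Leaving out 1 sample gave 0 to 15 members for any difference between sites, 0 to 18 in buccal mucosa, 0 to 5 in dorsal tongue, 0 to 21 in hard palate, 0 to 1 in ventral tongue, 2 to 16 in sections 1 to 10, 0 to 1 in the interaction and 3 to 20 in epithelium-rich sections; each site maximum came without buccal mucosa replicate 1, and the lone sample left was assumed to vary like the other groups. The S-phase to mitotic ratio of ventral tongue was 0.194 in epithelium-rich sections alone, and that of buccal mucosa 0.253 to 1.32 when 1 sample was left out. For single members 3256 comparisons kept their side of the threshold, 162 lost it and 110 gained it. Most of the 3256 were values called in neither fit. The main fits called only 7 members in sections 1 to 10, 21 in epithelium-rich sections and 0 in the site comparisons. All 162 losses fell on these called values. The causes were not tested. With the replicate number as a block 0 members were called in the 5 site comparisons. Same-numbered samples correlated at -0.198 to 0.544 in their deviations from the site mean, with 0.544 between dorsal and ventral tongue. The labels do not say if same-numbered samples share a mouse, and these correlations cannot settle it. Precision was limited by 2 samples per site and by depth, with 1743 member UMIs in buccal mucosa replicate 2 and 183, 262 and 278 UMIs in all for Mybl2, Ccne2 and Bub1.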
